A study of Rattus norvegicus with 3 samples.

Results

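Cohesin and condensin are the ring-shaped SMC (structural maintenance of chromosomes) complexes of the nucleus. Their transcripts were compared between the rat iPS (induced pluripotent stem) cell line M13 and a mix of cultured rat cells. The list held 10 genes: the condensin subunits Smc2, Smc4, Ncapd2, Ncapg and Ncaph and the cohesin subunits Smc1a, Smc3, Rad21, Stag1 and Stag2. Of these, 6 genes with 11 probes were found by the gene name on the array, several under older names (Smc1l1, Smc2l1, Cspg6 and Smc4l1). The other 4, Rad21, Ncapd2, Ncapg and Ncaph, with 7 probes, stood on the array under placeholder names and were found through a table of RefSeq genes. The array held 35496 genes and unnamed sequences in all, on 41012 probes.

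The tested cells were untreated iPS M13 cells kept on irradiated mouse embryonic fibroblast feeders, in medium with serum and a serum replacement. The control was 1 RNA, named mix1, whose growth protocol names cultured rat bone marrow cells and cultured primary fibroblasts of rat ear. The 3 iPS M13 samples, replicates 1, 2 and 3, carried Cy3 and shared their 2-colour whole-genome arrays with mix1 in Cy5. All 3 arrays lay on 1 slide. The labels name 1 iPS line, without saying that its samples were separate cultures. The p-values therefore cover the spread among these 3 samples alone, and that spread may be technical.

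Both complexes are built on a pair of SMC proteins that fold back on themselves, meet at a hinge and are closed at the other end by a kleisin protein. Cohesin (Smc1a, Smc3, the kleisin Rad21 and either Stag1 or Stag2) holds sister chromatids together after DNA replication and shapes chromatin loops in interphase. Condensin (Smc2, Smc4 and non-SMC subunits) compacts chromosomes for mitosis. Vertebrates have a condensin I, with Ncapd2, Ncapg and the kleisin Ncaph, and a condensin II with related subunits. Pluripotent stem cells are known for short cell cycles, and cohesin in them is known to bind enhancers of active genes.

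After loess normalization all 10 subunit transcripts were higher in iPS M13 than in mix1 on every array, and condensin subunits were further above mix1 than most cohesin subunits. Log2 ratios of iPS M13 over mix1 ran from 0.95 to 1.82 for the 5 condensin genes, and from 0.40 to 0.50 for Rad21, Smc1a, Stag1 and Stag2. Smc3 was the exception among the cohesin genes, at 1.18. A gene was called at a Benjamini-Hochberg adjusted p under 0.05 in limma and at least a 2-fold difference. By that rule 4 of 10 were called higher (Smc2, Ncapg, Smc4 and Smc3) and 0 lower, or 3 of the 6 found by name. Under median centring all 10 were called, and with the trend in probe GC content taken off Stag1 and Stag2 were at 0.02 and did not pass the test. Of the 20342 genes tested, 18.8% were called higher and 25.4% lower. The ratio was above 0 on all 3 arrays for 10 of 10 subunits and for 48.1% of all genes. All 10 passed the filter on dim probes, in both RNAs. The adjusted p-values of the 10 genes in limma lay between 2.19e-06 and 6.27e-05. By the adjusted p alone 47.2% of all genes were higher and 48.9% lower, so the minimum fold decided the calls. In bulk RNA, more expressing or dividing cells and more transcript per cell cannot be told apart.

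Of the condensin genes, Smc2 had the highest ratio. Smc2 encodes an SMC subunit of both condensin I and condensin II. It had 2 probes of 60 bases, shown here with their 27 shared bases in capitals because they read overlapping, adjoining stretches of the transcript. The first lies at chr5:69602434-69602493 in build rn3, plus strand. The second spans 4356 bases of the genome (chr5:69602467-69606822), so its ends lie apart there.
Smc2 probe, first: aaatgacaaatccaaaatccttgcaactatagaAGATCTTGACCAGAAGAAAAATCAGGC
Smc2 probe, second: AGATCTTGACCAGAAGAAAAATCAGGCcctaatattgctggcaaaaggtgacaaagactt

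The first Smc2 probe, the brighter, had mean spot signals of 2051, 2075 and 2185 in iPS M13 on replicates 1, 2 and 3, against 337, 379 and 344 in mix1. Its log2 ratio after normalization was 1.88, 1.69 and 1.88 (mean 1.82 ± 0.11, SD, n = 3), or 3.53-fold. The second probe gave 1.79 ± 0.0083 (SD, n = 3). As scanned, with no correction for dye, every iPS M13 signal lay far above every mix1 signal. With no within-array normalization the median log2 ratio of all genes was itself 0.52. The partly overlapping probes differed by less than the spread of the first between arrays.

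Smc4, the SMC partner of Smc2 in condensin, had 1 probe at chr2:158963909-158963968 (rn3, plus strand). Its signals were 14986, 16604 and 16175 in iPS M13, against 3189, 3732 and 3339 in mix1. The log2 ratio was 1.42, 1.45 and 1.41 (mean 1.43 ± 0.019, SD, n = 3), or 2.69-fold. The signals of both RNAs, as scanned and not corrected for dye, did not overlap, and the 3 arrays gave almost the same ratio.

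Ncapg, a HEAT-repeat subunit of condensin I, was read by 1 probe at chr14:70472737-70472796 (rn3, minus strand). Signals were 1080, 1107 and 1294 in iPS M13, against 249, 274 and 282 in mix1, the lowest mix1 signals among the probes used. The log2 ratio was 1.51, 1.33 and 1.49 (mean 1.44 ± 0.10, SD, n = 3), or 2.72-fold. Replicate 2 gave the lowest ratio, as it did for the first Smc2 probe.

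The other condensin I subunits stopped just short of the 2-fold minimum. Ncapd2, its second HEAT-repeat subunit, had signals of 23210, 23465 and 26385 in iPS M13, against 6994, 7508 and 7637 in mix1. Its log2 ratio was 0.97, 0.99 and 0.99 (mean 0.98 ± 0.012, SD, n = 3), and a second probe gave 0.92 ± 0.0039. Ncaph, the kleisin that closes the condensin I ring, had signals of 5231, 5863 and 5800 in iPS M13, against 1546, 1822 and 1590 in mix1. Its log2 ratio was 0.93, 0.95 and 0.98 (mean 0.95 ± 0.022, SD, n = 3). Both genes were thus 1.98-fold and 1.93-fold higher, on the uncalled side of a threshold that Smc3 and Ncapg passed.

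**Figure D1:**
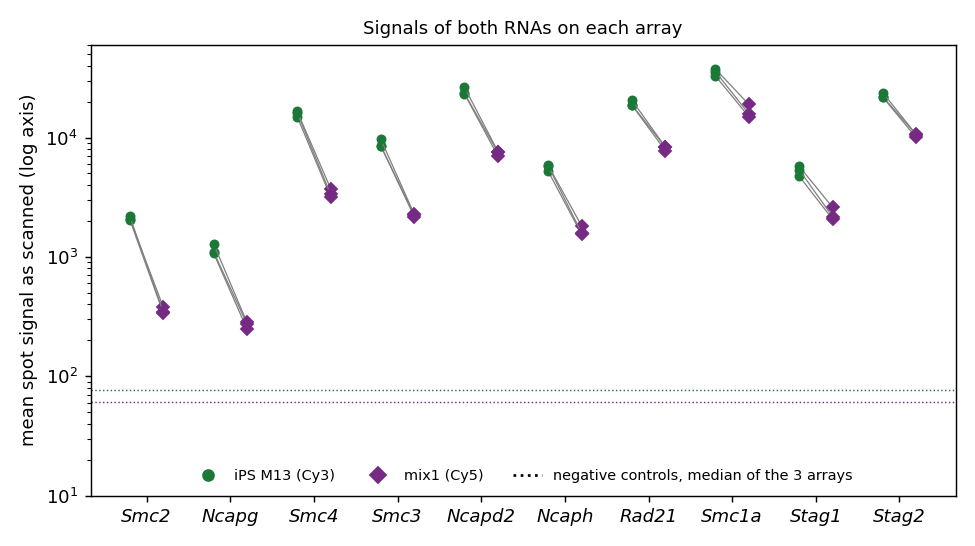
Mean spot signals as scanned (vertical axis, log scale) of the brightest probe of each subunit, with iPS M13 (green circles) left of mix1 (purple diamonds) and a line joining the RNAs of each array. For all 10 genes every iPS M13 signal is above every mix1 signal, and all lie above the median signal of the negative controls (dotted lines). The signals are not corrected for dye, and with no within-array normalization the median log2 ratio of all genes was 0.52.

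Among the cohesin genes only Smc3 was called. Smc3, whose older array name Cspg6 is that of a proteoglycan, encodes the SMC partner of Smc1a, the subunit acetylated when cohesion is set up. Its probe lies at chr1:260073598-260073657 (rn3, plus strand). Signals were 8518, 8495 and 9668 in iPS M13, against 2173, 2244 and 2273 in mix1. The log2 ratio was 1.15, 1.18 and 1.20 (mean 1.18 ± 0.027, SD, n = 3), or 2.26-fold. After loess this was above Ncapd2 and Ncaph on every array and below Smc4 on every array. With the trend in probe GC content taken off, Smc3 (0.80) was not called and lay below Ncapd2 (1.33) and Ncaph (1.05).

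Smc1a, the other SMC arm of the cohesin ring, was read by 1 probe at chrX:41600624-41600683 (rn3, plus strand). Signals were 32819, 37508 and 35637 in iPS M13, against 14938, 18917 and 15776 in mix1. The log2 ratio was 0.47, 0.47 and 0.48 (mean 0.47 ± 0.0067, SD, n = 3), or 1.39-fold. Smc1a and Smc3 work as a pair in the ring, yet after loess their ratios did not overlap on any array. Each was read by 1 probe, of 45% GC for Smc1a and 35% for Smc3. With the trend in probe GC content taken off they were closer, at 0.57 and 0.80.

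Rad21, the mitotic kleisin of cohesin that separase cuts at anaphase, had 3 probes on chromosome 7 in rn3, minus strand. They are shown because they tile different parts of the transcript and differ in base composition, with 35%, 53.3% and 41.7% GC in the order printed. They lie at chr7:88289280-88289339, chr7:88289831-88289890 and chr7:88295374-88297007, the last across 1634 bases of the genome.
Rad21 probe 1: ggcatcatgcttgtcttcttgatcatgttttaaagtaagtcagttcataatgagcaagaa
Rad21 probe 2: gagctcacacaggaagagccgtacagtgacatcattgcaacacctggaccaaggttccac
Rad21 probe 3: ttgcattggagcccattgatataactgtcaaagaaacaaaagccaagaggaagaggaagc

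Rad21 probe 1, the brightest, had signals of 18726, 18811 and 20627 in iPS M13, against 7786, 8341 and 8344 in mix1. Its log2 ratio was 0.50, 0.52 and 0.49 (mean 0.50 ± 0.012, SD, n = 3). Probe 2 gave 0.55 ± 0.0019 and probe 3 gave 0.67 ± 0.084 (SD, n = 3 each). After loess the probes thus placed Rad21 between 1.42-fold and 1.59-fold higher in iPS M13, and none was called. Under median centring the log2 ratios of the Rad21 probes ran from 1.23 to 1.39.

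Stag1 and Stag2 encode the alternative STAG subunits of cohesin, of which a ring carries either. The brighter Stag1 probe, at chr8:105938164-105938223 (rn3, plus strand), had signals of 4756, 5753 and 5377 in iPS M13, against 2073, 2604 and 2177 in mix1. Its log2 ratio was 0.38, 0.42 and 0.42 (mean 0.40 ± 0.023, SD, n = 3), and the other probe gave 0.52 ± 0.013. The brightest Stag2 probe had signals of 21793, 21987 and 23789 in iPS M13, against 10008, 10603 and 10580 in mix1. Its log2 ratio was 0.38, 0.42 and 0.39 (mean 0.40 ± 0.022, SD, n = 3). By these probes Stag1 and Stag2 could not be ordered, since their difference turned its sign between arrays (mean 0.0037 ± 0.021, SD, n = 3).

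After loess, Stag2 was also the subunit whose probes disagreed most. Its 4 probes lie on the minus strand of chromosome X in rn3, and they are printed in rising order of coordinate, at chrX:2840214-2840273, chrX:2853907-2853966, chrX:2867700-2867759 and chrX:2914237-2914296.
Stag2 probe 1: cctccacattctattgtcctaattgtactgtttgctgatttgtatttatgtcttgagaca
Stag2 probe 2: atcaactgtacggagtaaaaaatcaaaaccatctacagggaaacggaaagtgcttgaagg
Stag2 probe 3: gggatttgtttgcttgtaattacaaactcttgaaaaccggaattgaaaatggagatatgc
Stag2 probe 4: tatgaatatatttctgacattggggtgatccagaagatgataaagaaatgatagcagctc

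Against 0.40 from probe 1, the brightest, Stag2 probe 2 gave a log2 ratio of 0.93 ± 0.041 and probe 3 gave 0.93 ± 0.053 (SD, n = 3 each). Probe 4 gave 0.21 ± 0.022. Probe 3 was well above background in mix1 on 2 of 3 arrays, and the other 17 of the 18 probes were so in both RNAs on all 3. After loess the level of Stag2 in iPS M13 was therefore between 1.16-fold and 1.90-fold that of mix1, depending on the probe. This range is wider than the whole gap between Stag1 and Ncaph, so the place of Stag2 in the order rests on the probe used. It also rests on the setting. The log2 ratios of the Stag2 probes ran from -0.17 to 0.72 with the trend in probe GC content taken off. With the scanner software's processed signals they ran from 0.60 to 1.71. Which transcripts each probe reads was not tested.

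**Figure D2:**
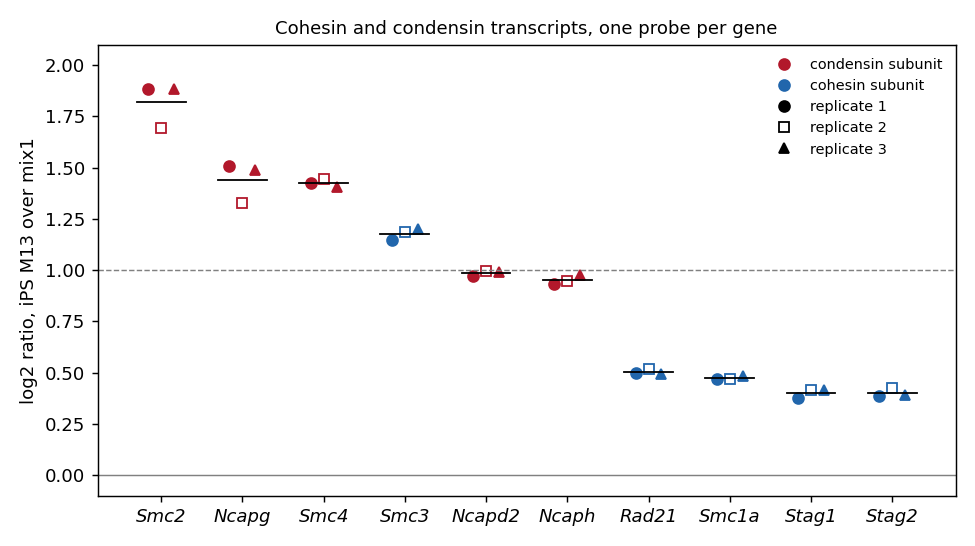
Log2 ratio of iPS M13 over mix1 (vertical axis) of the brightest probe of each subunit on replicates 1 to 3 (symbols), with the mean as a bar. Condensin genes (red) lie between 0.95 and 1.82, Smc3 at 1.18 and the other cohesin genes (blue) between 0.40 and 0.50, and the dashed line marks 2-fold.

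In the order of the 10 ratios, most neighbours differed by more than the arrays did. Smc2 exceeded Ncapg by 0.38 ± 0.014, Smc4 exceeded Smc3 by 0.25 ± 0.036 and Ncaph exceeded Rad21 by 0.45 ± 0.030 (SD, n = 3 each). Within arrays, the differences of Ncapg and Smc4 and of Stag1 and Stag2 turned their sign, so these pairs had no settled order. Ncapd2 exceeded Ncaph on all 3 arrays, by 0.033 ± 0.019 (SD, n = 3), though their ranges overlapped and under median centring Ncapd2, at 1.77, was below Ncaph, at 1.80.

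The mean log2 ratio of the 5 condensin genes minus that of the 5 cohesin genes was 0.77, 0.68 and 0.75 on replicates 1, 2 and 3 (mean 0.73 ± 0.048, SD, n = 3). The condensin genes averaged 1.32 and the cohesin genes 0.59. With only the 6 genes found by name the difference was 1.01 ± 0.057, and without Smc3 it was 0.88 ± 0.048. An exact sign-flip test over 3 arrays reaches p = 0.25 at the least, and the members are not replicates, so the difference is given with no test. It had the same sign on every array.

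The ratios themselves depended on how the arrays were scaled, because the median log2 ratio of all genes moved with it. That median was -0.02 after loess, and it shifted up by 0.60 under median centring, 0.55 with no within-array normalization and 0.31 with the scanner software's processed signals. Of all calls 42.5% were higher after loess, against 67.2%, 65.1% and 56.6% in those settings. Under median centring and with no within-array normalization all 10 subunits were called higher, beside 36.4% and 34.4% of all genes. With the processed signals 6 of 10 were called, beside 31.1% of all genes. In each of the 13 settings tried, loess included, all 10 subunits stood above the median of all genes. For Stag1 and Stag2 this was nearly a tie with the trend in probe GC content taken off. They were then at 0.022 and 0.018, beside a median of 0.011, and did not pass the test. The settings were not all separate checks. Changing the filter on dim probes left the subunit ratios as they were after loess, and the authors' deposited ratios repeated the processed signals. In all 13 the 5 condensin genes stood above Rad21, Smc1a, Stag1 and Stag2, by the brightest probe of each gene or the mean of its probes. Single dimmer probes went the other way. With the processed signals Stag2 probes 2 and 3 (1.47 and 1.71) were above Ncapd2 (1.29) and Ncaph (1.40). With the trend in probe GC content taken off, Rad21 probe 2 (1.09) was above Ncaph (1.05) and Smc4 (1.04). The place of Smc3 varied: under median centring it was at 2.03, beside 2.02 for Ncapg, and with the trend in probe GC content taken off it was at 0.80, below all 5 condensin genes. Taken against the median of all genes, the median subunit was 0.99 above it after loess and 1.21 above it under median centring.

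Probe base composition moved with the ratios. Across all genes, which are not independent, the log2 ratio fell by 0.43 per 10% of probe GC content, and 8 of the 18 subunit probes had 35% GC, against a median of 43.3% over all genes tested. The 3144 genes read by probes of 35% GC had a median log2 ratio of 0.40, the level of Stag1 and Stag2. With the trend taken off, Smc2 was at 1.44, Ncapd2 at 1.33, Ncapg at 1.18, Ncaph at 1.05 and Smc4 at 1.04. In that setting all 5 condensin genes were called, Smc3 (0.80) was not, and 17.3% of all genes were called higher. Smc1a stood at 0.57 and Rad21 at 0.12, while Stag1 (0.02, adjusted p = 0.317 in limma) and Stag2 (0.02, adjusted p = 0.422 in limma) no longer passed the test. Probes of the same gene agreed less in that setting for all 5 genes with several probes. Those of Rad21 then ran from 0.12 to 1.09, against 0.50 to 0.67 without it, and those of Ncapd2 from 0.80 to 1.33, against 0.92 to 0.98. Stag2 probe 4 then stood below 0, at -0.17, the only subunit probe to do so in that setting. The part of GC content in these ratios was not tested further.

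**Figure D3:**
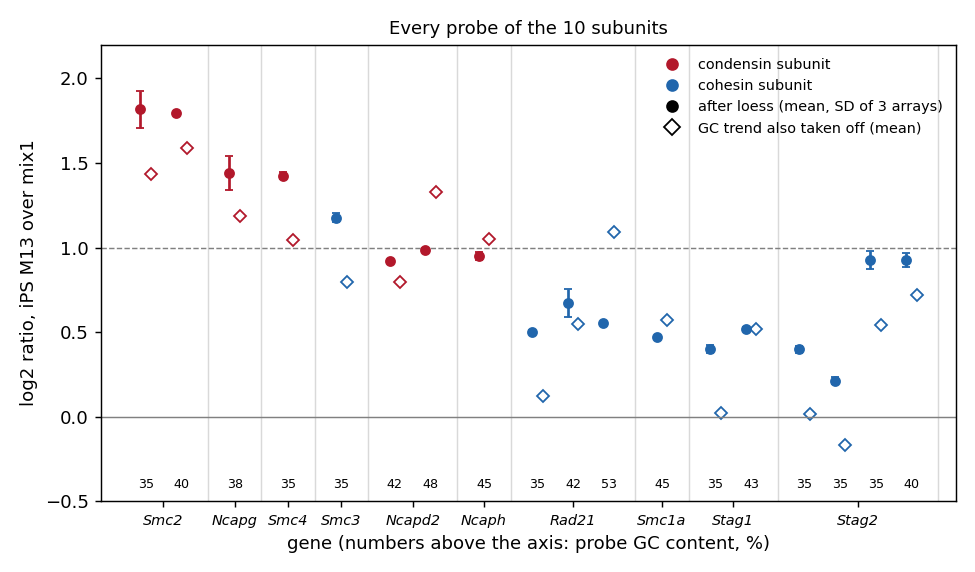
Log2 ratio of iPS M13 over mix1 (vertical axis) of all 18 probes of the 10 subunits, after loess (filled circles, mean and SD of 3 arrays) and with the trend in GC content also taken off (open diamonds, mean). Numbers above the axis give each probe's GC content in percent, and for Rad21 the open diamonds spread from 0.12 to 1.09 where the filled circles lie between 0.50 and 0.67.

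**Figure D4:**
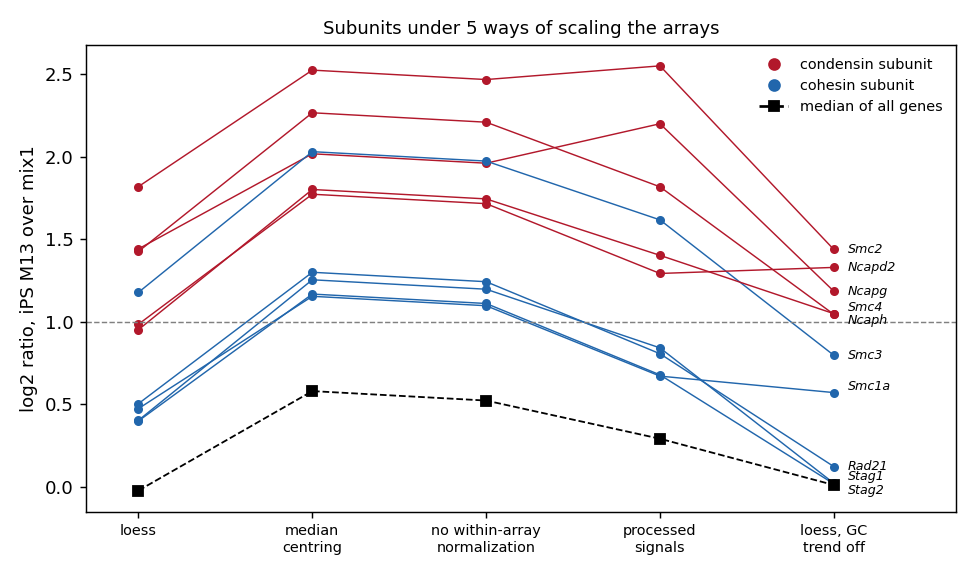
Log2 ratio of iPS M13 over mix1 (vertical axis) of the 10 subunits under 5 ways of scaling (horizontal axis), with the median of all genes as black squares. Each gene is shown by its brightest probe. All subunits stay above that median, though Stag1 (0.022) and Stag2 (0.018) barely do so with the GC trend off, where it is 0.011. The condensin genes (red) stay above Rad21, Smc1a, Stag1 and Stag2 (blue). Other probes of Stag2 and Rad21 change that order in some settings. The dashed line for 2-fold is crossed by different genes in different settings.

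Condensin II has its own version of each non-SMC subunit. After loess, by the brightest probe of each, these were closer to mix1 than their condensin I counterparts. Ncapd3 had a log2 ratio of 0.44 ± 0.011, Ncapg2 of 0.44 ± 0.010 and the kleisin Ncaph2 of 0.11 ± 0.0029 (SD, n = 3 each). Of these 3, 0 were called in either direction, beside 18.8% of all genes called higher and 25.4% lower, so the count alone says little. Ncapd2 exceeded Ncapd3 by 0.54 ± 0.0040, Ncapg exceeded Ncapg2 by 1.00 ± 0.11 and Ncaph exceeded Ncaph2 by 0.84 ± 0.023 (SD, n = 3 arrays). This comparison was chosen after its values were seen and is given with no test. The differences kept their sign under all 12 other settings, at lowest 0.42, 0.73 and 0.35. Here too probes disagreed: a dimmer Ncapg2 probe gave 0.95 ± 0.058, close to Ncaph, and a dimmer Ncapd3 probe gave 0.0090 ± 0.069. The paired probes also differed in GC content, with 45% for Ncaph against 55% for Ncaph2. The other pairs had 48.3% for Ncapd2 against 45% for Ncapd3, and 38.3% for Ncapg against 35% for Ncapg2. The part of GC content in these differences was not tested beyond the setting with its trend taken off.

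The promoters of the subunits were read from RefSeq sequence and are shown because all 10 subunits were higher in iPS M13 after loess. From 1 comparison of 2 RNAs it cannot be seen whether genes move together. Any part of these motifs in the ratios was not tested. Many genes expressed in late cell cycle carry a cell cycle homology region (CHR), read here as TTTGAA on either strand. It was in the window from 250 bases before to 50 after the gene start for 4 of 5 condensin genes and 0 of 4 cohesin genes with an entry, Rad21 having none, and in 18.3% of all 33469 promoter windows. A CCAAT box (CCAAT on either strand) was in 4 of 5 condensin and 3 of 4 cohesin windows, against 37.5% of all. An E2F-type motif (GCGGGAA on either strand) was in 2 of 5 and 2 of 4 windows, against 4.21% of all. No motif searched is contained in another. A match in these letters is not a measured site, and no match says only that these letters are not in the window. The 4 windows with a CHR are given 5′ to 3′ along the gene, in build GRCr8, with TTTGAA or its reverse complement in capitals: Ncapd2 at chr4:159677889-159678188 and Ncapg at chr14:69645396-69645695, both on the minus strand, and Smc2 at chr5:71602155-71602454 and Smc4 at chr2:155550012-155550311, both on the plus strand. The windows of Smc2, Smc3 and Stag2 lie inside the outer bounds of their genes in the RefSeq table, not at the first base. The start used for Stag1 also lies inside its gene, though its window reaches beyond the first base. The counts therefore hold for these windows only.
Ncapd2: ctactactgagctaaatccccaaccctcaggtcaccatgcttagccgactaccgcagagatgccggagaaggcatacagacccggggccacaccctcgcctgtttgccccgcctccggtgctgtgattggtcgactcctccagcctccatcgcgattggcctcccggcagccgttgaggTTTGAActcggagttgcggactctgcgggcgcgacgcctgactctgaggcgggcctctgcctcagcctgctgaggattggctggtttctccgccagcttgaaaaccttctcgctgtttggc
Ncapg: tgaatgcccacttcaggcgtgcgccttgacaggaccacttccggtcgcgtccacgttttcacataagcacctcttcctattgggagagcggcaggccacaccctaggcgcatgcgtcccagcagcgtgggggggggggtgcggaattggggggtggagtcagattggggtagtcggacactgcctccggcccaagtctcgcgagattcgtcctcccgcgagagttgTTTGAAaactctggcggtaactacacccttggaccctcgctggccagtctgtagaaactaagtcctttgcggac
Smc2: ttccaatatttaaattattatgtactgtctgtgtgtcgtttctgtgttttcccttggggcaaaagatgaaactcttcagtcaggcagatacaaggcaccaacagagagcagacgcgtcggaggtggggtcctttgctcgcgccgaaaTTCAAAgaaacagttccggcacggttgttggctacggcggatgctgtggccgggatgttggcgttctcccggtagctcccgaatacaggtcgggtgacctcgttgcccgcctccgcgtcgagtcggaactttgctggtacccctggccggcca
Smc4: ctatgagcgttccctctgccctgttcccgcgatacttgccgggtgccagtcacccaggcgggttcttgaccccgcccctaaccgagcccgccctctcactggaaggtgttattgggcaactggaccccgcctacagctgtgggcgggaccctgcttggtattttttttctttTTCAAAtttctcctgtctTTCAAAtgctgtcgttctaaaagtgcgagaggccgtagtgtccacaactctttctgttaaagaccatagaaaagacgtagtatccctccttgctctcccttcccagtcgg
Smc4 held the motif at 2 places and the other 3 genes at 1. Ncaph was the condensin gene without a match.

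Genes that load, lock, protect or cut cohesin were mixed. Of 14 measured regulators 6 were called higher and 0 lower, with a median log2 ratio of 0.90, beside 18.8% of all genes called higher and a median of -0.02 for all genes. On this list and the others of subunits and partners described here, 16 genes were called higher in all, against 32 under median centring and 9 with the GC trend taken off. Separase, Espl1, which cuts Rad21, was at 1.67 ± 0.016, and Esco2, the acetyltransferase that acts on Smc3 in S phase, at 1.62 ± 0.099 (SD, n = 3 each). The zinc finger protein gene Ctcf, at whose sites cohesin halts, was at 1.24 ± 0.025 and Esco1 at 1.21 ± 0.022. Sororin, Cdca5, which counters the releasing factor, was at 1.04 ± 0.097 and was called, and the shugoshin gene Sgo2, which protects cohesin at centromeres, was at least 3.24-fold higher, with mix1 not well above background on any array. The lowest of the 8 genes not called were the cohesin loader Nipbl (0.23 ± 0.016), the releasing factor Wapl (0.33 ± 0.0041), the separase inhibitor Pttg1 (0.44 ± 0.026) and the Smc3 deacetylase Hdac8 (-0.79 ± 0.037). The rest of those not called were Sgo1 (0.99 ± 0.021), Mau2 (0.81 ± 0.040), Pds5a (0.65 ± 0.091) and Pds5b (0.45 ± 0.015). Of these, Sgo1 stopped just short of the 2-fold minimum.

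The subunits special to meiotic cohesin, Smc1b, Rec8, Rad21l1 and Stag3, had 5 probes. None was well above background on any array, in iPS M13 or in mix1, so no ratio is given for them.

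The remaining SMC complex, SMC5/6, acts in DNA repair. Of 6 measured genes of its list, 3 were called higher and 0 lower, at a median of 0.83, beside 18.8% of all genes called higher. Nsmce4a (1.38 ± 0.018), Smc6 (1.16 ± 0.015) and the SUMO ligase Nsmce2 (1.07 ± 0.023) were called, and Smc5 was at 0.41 ± 0.0068 (SD, n = 3 each). As in cohesin, the SMC partners of a single ring had unlike ratios after loess, by the brightest probe of each.

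A further list held genes for mitotic chromosome structure and the passenger complex, and also others such as Top2b, Aurka and Ccnb1. Of its 13 measured genes, 7 were called higher and 0 lower, at a median of 1.07, beside the same 18.8% of all genes. The passenger kinase Aurkb (1.57 ± 0.020), the spindle kinase Aurka (1.52 ± 0.018), the DNA topoisomerase Top2b (1.51 ± 0.023) and cyclin Ccnb1 (1.43 ± 0.033) led (SD, n = 3 each). Top2a, which works beside condensin on mitotic chromosomes, was called at 1.15 ± 0.040. The passenger subunits Incenp (0.16 ± 0.015) and Birc5 (-0.28 ± 0.0052) were not called. Cdca8, a further passenger subunit, was not called either, but at 0.97 ± 0.023 it was just short of the 2-fold minimum. Markers of cycling cells, a list that shares Mki67 and Ccnb1 with the last, were also higher. Of these, 11 of 16 were called higher and 0 lower, at a median of 1.33, again beside 18.8% of all genes. Their summed processed signal was 272641 to 412014 in iPS M13, against 87764 to 128053 in mix1 over the 3 arrays. Their part in the ratios of the subunits was not tested.

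**Figure D5:**
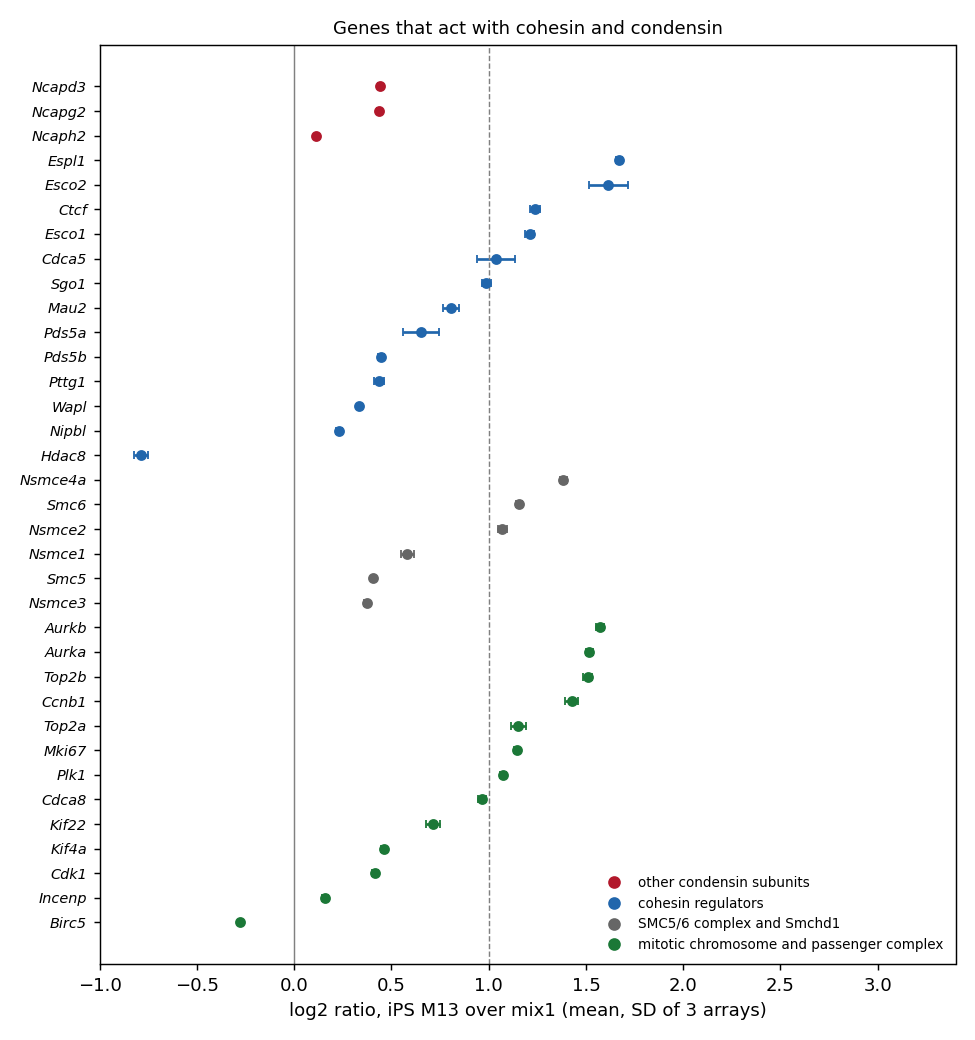
Log2 ratio of iPS M13 over mix1 (horizontal axis, mean and SD of 3 arrays) of genes that act with cohesin and condensin, grouped by colour. The condensin II subunits at the top lie between 0.11 and 0.44, while Espl1, Esco2 and Aurkb lie beyond 1.5, and Sgo2 is left out because mix1 was not well above background.

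The labelled cell types were checked on markers. Of 7 measured pluripotent cell markers 6 were called higher in iPS M13 (Dnmt3b at 4.10 ± 0.081, SD, n = 3), and Lin28a was not called, and no probe carried the names Nanog, Zfp42 or Tdgf1. All 11 fibroblast markers and all 7 measured macrophage and blood cell markers were called lower. The fibroblast markers summed to a processed signal of 12946 to 19112 in iPS M13, against 1484254 to 2084361 in mix1, and Postn and Thy1 were not well above background in iPS M13 on any array. The feeders are mouse fibroblasts, and what their RNA gave on the subunit probes was not tested.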

How the data were processed

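Spot intensities for 3 arrays were deposited by the authors as the scanner software gave them, with local background not subtracted; the software was Agilent Feature Extraction 9.5.3.1, per the file headers. Processed intensities were background-subtracted, detrended and dye-normalized, and the log10 ratios are Cy5 over Cy3, per the file headers. The deposited series values were log2 ratios of unstated direction and centring. Against the log10 ratios those columns had slopes of -3.32 and correlations between -0.99996 and -0.99986, so they were read as log2 of Cy3 over Cy5, with column medians of -0.041, -0.028 and -0.029.

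Mean signals were corrected by normexp (offset 50) and loess, with limma 3.58.1 (R 4.3.3, with data.table at version 1.17.8) giving control spots weight 0, and spots marked as outliers were left out. Kept were probes that 1 channel, the same on all 3 arrays, showed well above background (24178 of 41012), and the brightest stood for its gene. The mean log2 ratio was tested against 0 in limma with Benjamini-Hochberg adjustment over 20342 genes, a test that leaves out the spread of mix1. Dye and group cannot be told apart, as no dye was swapped. Ratios correlated at 0.997 to 0.998 between arrays across genes. For probes with 10 spots the median SD over arrays was 0.029, where spot noise alone gave 0.023, and each array was counted as 1 sample. Median signals were 272 to 291 in iPS M13 and 228 to 254 in mix1, against negative control medians of 76.0 to 77.4 and 60.9 to 63.7. The number of arrays limits the precision.

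Names were updated through RefSeq genes (GRCr8): 21301 probes matched and 19711 kept the array's name. Members and lists were chosen with earlier results of these data known. All members were named; of each related list, at most the 4 highest and 4 lowest called genes that had a signal above background in each RNA on some array. Cdca5, Sgo2, Top2a, Smc5 and the uncalled genes given with values were named after their values were seen. The fit was tested on simulated data. Names and figures were made in Python 3.11.15 (numpy 2.4.6, pandas 2.3.3, matplotlib 3.10.9).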

Additional observations from a re-analysis of the deposited data

How the results depend on the processing

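The 12 alternatives changed the scaling, the signals used, the background correction, the filter, the rule for several probes, the GC trend or the arrays. All genes called higher, 3819 after loess, were 7409 under median centring, 7005 with no within-array normalization and 6319 with the processed signals or the authors' value table. Subunits called higher, 4 of 10, were 10 under median centring and with no within-array normalization (6 of the 6 found by name in both). Genes called higher on the related lists, 16, were 32 and 30 in those settings and 9 with the GC trend taken off. Condensin minus cohesin, 0.73, was 0.93 with the processed signals or the value table, 0.90 with the GC trend off and 0.65 with probes averaged. Leaving out 1 array gave 0.72 to 0.76 for it, 4 subunits called (3 by name), 15 to 16 related genes, and 8867 to 9116 genes called in all, of which 3742 to 3910 were higher and 5125 to 5206 lower. No subunit changed sign under any of these alternatives, though changing the filter could not move the subunit ratios and the value table repeated the processed signals. Smc3 lost its call, and Stag1 and Stag2 their adjusted p under 0.05, only with the GC trend off. No paired analysis was possible because 1 group alone carries replicate numbers, beyond the pairing of iPS M13 with mix1 within each array that every ratio already holds. Single probes, as for Smc3 and Smc4, and the dimmest mix1 signals, of Ncapg and Smc2, limit what these values can show.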
